A study of Arabidopsis thaliana with 6 samples.

Results

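The cold response of sfr6 seedlings was set against the cold responses of cls8 and of the wild type, probe set by probe set. It was taken from the 2 sfr6 arrays of the 6 ATH1 arrays in the series, and the other 4 arrays gave the responses it was compared with. The groups were sfr6, cls8 and the wild type, each at 4 °C and at 20 °C, and all were in the Col-0 ecotype of Arabidopsis thaliana. sfr6, a mutant sensitive to freezing, and cls8, a mutant sensitive to chilling, are both labelled as EMS mutants, so each is a chemically induced line that may carry further mutations. CLS8 is known to encode the large subunit of ribonucleotide reductase, which makes the building blocks of DNA. Whole seedlings aged 7 days, stratified for 4 days at 4 °C and grown at 20 °C on MS medium, were held for 3 h in the light at either temperature. Each array received RNA pooled from 40 to 60 plants. There was 1 array in each group, so every fold rests on a pair of arrays and no test was made. The titles of both cls8 arrays carry a repeat tag. The tags differ between 4 °C and 20 °C and do not say what was repeated.

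SFR6 is a subunit of Mediator, the complex that passes signals from transcription factors bound to DNA on to RNA polymerase II. In the cold, the CBF transcription factors bind a short promoter element of COR, KIN and LTI genes, whose products protect cells against freezing, and SFR6 is known to be needed for the full expression of these genes. CBF genes themselves are known to be induced by cold in sfr6. The gene mutated in sfr6 and the CBF genes had no probe set with a single gene name, so neither could be followed by name here. The label of the sfr6 arrays was thus not checked by the mutated gene. Probe sets without such a name were still among those counted below.

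All arrays had the same trimmed mean intensity of 100, and their medians lay between 41.7 and 45.2. Outlier cells, as counted in the labels, numbered 1101 for sfr6 at 20 °C, 922 for cls8 at 20 °C and between 406 and 517 on the remaining arrays. Folds below are differences in log2(intensity + 14.1) between 4 °C and 20 °C within a line, over 13648 probe sets kept by a filter on the mean level, and 7343 of these carry the name of exactly 1 gene. The pseudocount of 14.1 makes the folds of dim probe sets smaller than the ratio of their intensities. Over all kept probe sets the folds correlated at r = 0.719 between sfr6 and the wild type, 0.677 between sfr6 and cls8, and 0.708 between cls8 and the wild type. These are correlations across probe sets that share arrays and are given as a description.

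Most cold responses were present in sfr6, and a minority were much smaller. Transcripts raised at least 2-fold by cold in both cls8 and the wild type numbered 162 (1.19% of kept probe sets), and 103 were lowered at least 2-fold in both (0.755%). Of the 162, 120 were also raised at least 2-fold in sfr6, and of the 103, 62 were also lowered at least 2-fold. Raised and lowered here name the size of a fold and no test. In the classes used here, a response was weakened where the sfr6 fold was closer to 0, or on its other side, by at least 1 on the log2 scale from the mean of the cls8 and wild-type folds. It was kept where the sfr6 fold lay within 0.5 of that mean, and enhanced where it was further from 0 by at least 1.

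Among the 162 raised transcripts, 20 were weakened in sfr6, 104 were kept, 3 were enhanced and 35 lay in between. Over all kept probe sets, 0.278% had an sfr6 fold at least 1 below the mean of the other lines, and 92.2% lay within 0.5 of it. Among the 103 lowered transcripts, 11 were weakened, 56 were kept, none was enhanced and 36 lay in between. Over all kept probe sets, 0.388% had an sfr6 fold at least 1 above that mean. The median fold of the raised transcripts was 1.44 in sfr6, 1.53 in cls8 and 1.59 in the wild type. The median fold of the lowered transcripts was -1.08 in sfr6, -1.39 in cls8 and -1.47 in the wild type.

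**Figure D1:**
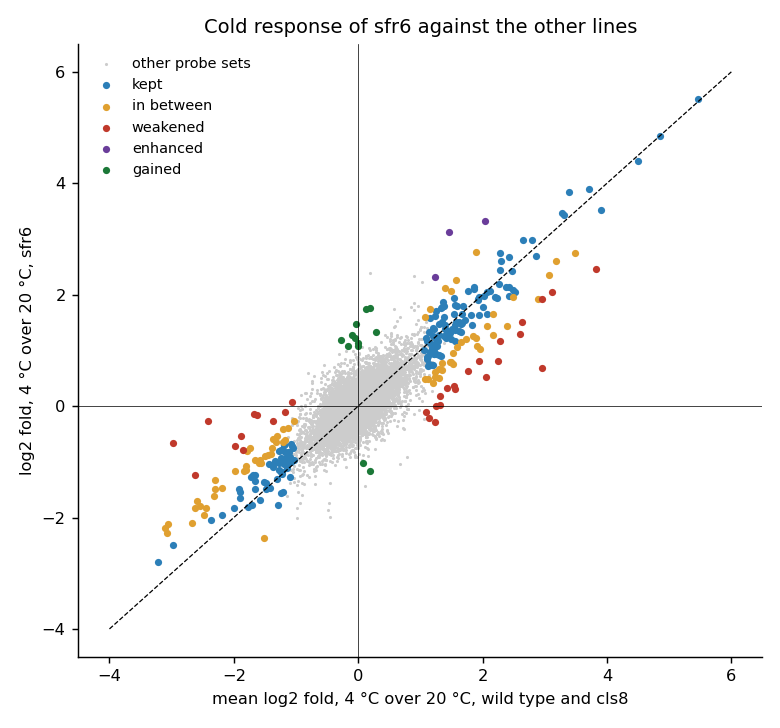
Each point is 1 of 13648 probe sets, with the log2 fold of 4 °C over 20 °C in sfr6 on the vertical axis and the mean of the same folds in the wild type and cls8 on the horizontal axis; the dashed line marks equal folds. The 20 weakened rises lie below the line on the right, the 11 weakened falls above it on the left, and the 104 and 56 kept responses lie close to it.

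A set chosen by its folds in a pair of lines tends to have a smaller fold in the remaining line, so each other line was put in the place of sfr6. With cls8 set against sfr6 and the wild type, 1 of 161 raised and 4 of 83 lowered transcripts were weakened. With the wild type set against sfr6 and cls8, 1 of 141 raised and none of 75 lowered transcripts were weakened. In all, 11.7% of these transcripts were weakened in sfr6, 2.05% in cls8 and 0.463% in the wild type. The shares kept were 60.4% in sfr6, 72.1% in cls8 and 81.5% in the wild type. These 3 comparisons use the same 6 arrays, and their counts are set side by side with no test.

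Differences of this size were also more frequent in sfr6 when all kept probe sets were counted. For cls8, 0.198% lay at least 1 below the mean of the other lines and 0.242% at least 1 above, and for the wild type the shares were 0.22% and 0.161%. The cls8 and wild-type folds themselves differed with an SD of 0.34 across kept probe sets, and they lay within 0.5 of each other for 14 of the 20 weakened rises, against 141 of all 162 raised transcripts and 11863 of 13648 kept probe sets. The cls8 and wild-type folds thus agreed less often for the weakened rises than for the rest.

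**Figure D2:**
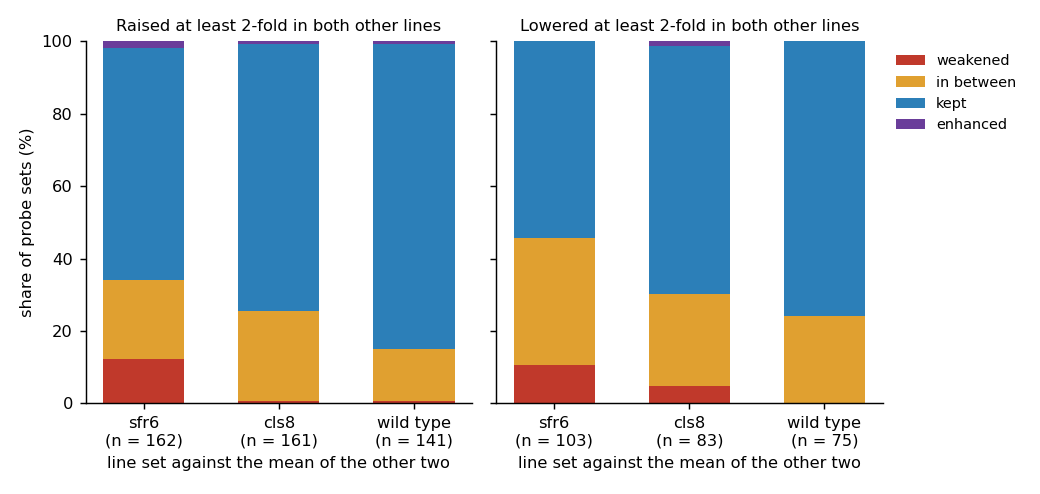
Stacked bars give the share, in percent, of probe sets raised (left) or lowered (right) at least 2-fold by cold in both other lines that were weakened, in between, kept or enhanced in the line named below each bar. The weakened share of raised probe sets was 12.3% for sfr6 (n = 162), 0.621% for cls8 (n = 161) and 0.709% for the wild type (n = 141).

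The lowered transcripts differed from the raised ones in how the smaller response was spread. The sfr6 fold was closer to 0 than both other folds, or beyond it, for 82 of 103 lowered transcripts (79.6%), and for 95 of 162 raised transcripts (58.6%). Over all kept probe sets the sfr6 fold lay above both others in 36.6% and below both in 28.4%. Put in the place of sfr6, cls8 had such a smaller fold for 36.1% of lowered and 49.7% of raised transcripts. For the wild type in that place it was 33.3% and 34.8%. The median share of the mean fold that remained in sfr6 was 73.1% for lowered transcripts and 88.5% for raised ones. With cls8 in the place of sfr6 these shares were 95.9% and 92.1%, and with the wild type 111% and 99.8%. Grouped by the size of the mean fold, the median share ran from 64.6% to 74.6% for lowered transcripts. For raised transcripts it ran from 86.4% to 89.6% below a mean log2 fold of 3, and it was 97.7% for the 13 with a mean fold of at least 3, of which 8 were kept. All lowered groups thus had a smaller median share than any raised group.

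Transcripts were also chosen by 1 line alone and their folds compared in the remaining pair. Of 236 probe sets raised at least 2-fold in cls8, the median fold was 1.14 in sfr6 and 1.3 in the wild type, with the sfr6 fold the smaller in 60.2%. Of 170 lowered at least 2-fold in cls8, the median fold was -0.93 in sfr6 and -1.13 in the wild type, with the sfr6 fold the smaller in 71.8%. The 282 chosen as raised in the wild type had a median fold of 1.11 in sfr6 and 1.14 in cls8, with the sfr6 fold the smaller in 52.8%. The 196 chosen as lowered there had a median fold of -0.90 in sfr6 and -1.02 in cls8, with the sfr6 fold the smaller in 67.9%. The 256 chosen as raised in sfr6 had a median fold of 1.08 in cls8 and 1.2 in the wild type, with the cls8 fold the smaller in 62.1%. The 130 chosen as lowered in sfr6 had a median fold of -1.11 in cls8 and -1.2 in the wild type, with the cls8 fold the smaller in 55.4%. For rises, the gap between cls8 and the wild type was thus similar in size to that between sfr6 and the wild type, and for falls it was narrower than either gap with sfr6.

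AT1G68500, a gene of unknown function, had the lowest sfr6 fold relative to the other lines among the named raised genes. It read 38.2 at 4 °C and 18.4 at 20 °C in sfr6, against 445.6 and 39.7 in cls8 and 456.7 and 52.6 in the wild type. The log2 fold was 0.69 in sfr6, 3.10 in cls8 and 2.82 in the wild type, a difference of -2.27 between sfr6 and the mean of the others. The sfr6 level was the lowest of the 3 lines at both temperatures, and the gap was wider at 4 °C.

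AT1G64890, a membrane transporter of the major facilitator superfamily, read 95.4 at 4 °C and 61.8 at 20 °C in sfr6. It read 326.2 and 48.3 in cls8, and 263.4 and 74.2 in the wild type. Its 20 °C level in sfr6 lay between those of the other lines, so the difference of -1.52 in the fold lay at 4 °C. COR15A, a chloroplast protein that protects membranes during freezing, was also in this class. Its log2 fold was 1.29 in sfr6, 2.40 in cls8 and 2.81 in the wild type. It read 101.3 at 4 °C and 33.2 at 20 °C in sfr6, 573 and 97.2 in cls8, and 423.7 and 48.4 in the wild type, lowest in sfr6 at both temperatures.

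AT4G36010, a thaumatin-like protein of the pathogenesis-related kind, shows a response that was weakened and still large. It read 213.8 at 4 °C and 27.1 at 20 °C in sfr6, 658.6 and 29.5 in cls8, and 607 and 33.8 in the wild type. The log2 fold was 2.47 in sfr6, 3.95 in cls8 and 3.70 in the wild type. The 20 °C levels of the 3 lines were alike and the 4 °C levels were not.

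For 4 raised transcripts the sfr6 fold lay below 0, and the named ones were AT5G19875 and VTC4. VTC4, the L-galactose-1-phosphate phosphatase of ascorbate synthesis, read 352.9 at 4 °C and 379.8 at 20 °C in sfr6. It read 533.7 and 254.7 in cls8, and 513.2 and 225.6 in the wild type. Its sfr6 level was the highest of the 3 lines at 20 °C and the lowest at 4 °C, and its fold was -0.10 in sfr6, against 1.03 in cls8 and 1.14 in the wild type. AT5G19875 read 27.6 and 34.1 in sfr6, 95.4 and 39.5 in cls8, and 79.3 and 25.4 in the wild type.

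AT1G48100, a polygalacturonase that acts on the pectin of cell walls, read 21.8 at 4 °C and 21.2 at 20 °C in sfr6, against 126.3 and 33.7 in cls8 and 74.1 and 27.5 in the wild type. AT1G32860, of the family of beta-1,3-glucanases, read 39.7 and 28.6 in sfr6, 127.9 and 37.3 in cls8, and 105.5 and 31.5 in the wild type. Both were close to flat in sfr6, with log2 folds of 0.02 and 0.33. AT5G20790 had a log2 fold of 1.51 in sfr6, 2.68 in cls8 and 2.60 in the wild type.

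AT1G13730, a protein with a nuclear transport factor domain and an RNA-binding domain, had the larger part of its gap at 20 °C, as VTC4 did, unlike the other named weakened rises. It read 115.7 at 4 °C and 59.7 at 20 °C in sfr6, 159.7 and 14.4 in cls8, and 98 and 16 in the wild type. Its 4 °C level in sfr6 lay between those of the other lines, and its 20 °C level was the highest. The unnamed raised probe set with the lowest difference, -1.51, had a similar pattern, at 232.8 and 286.9 in sfr6, 163.7 and 61.6 in cls8, and 157.1 and 59.1 in the wild type.

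In all, 11 of the 20 weakened rises carried the name of 1 gene. The other 9 had differences from -1.51 to -1.06, and the next after the unnamed probe set above had a log2 fold of -0.01 in sfr6, 1.43 in cls8 and 1.08 in the wild type. Just inside the threshold lay AT1G51090, with a heavy-metal-associated domain, at a difference of -1.04. Just outside lay the zinc-finger repressor STZ at -0.96. Within 0.15 of the threshold, 8 raised transcripts lay inside and 4 outside, and 4 lowered transcripts lay inside and 6 outside, so both counts of weakened responses depend on its exact place. They depend on the pseudocount too, with 6 of 119 raised and 5 of 62 lowered transcripts weakened at a pseudocount of 43.6. At a pseudocount of 1 the counts were 24 of 211 and 22 of 148.

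**Figure D3:**
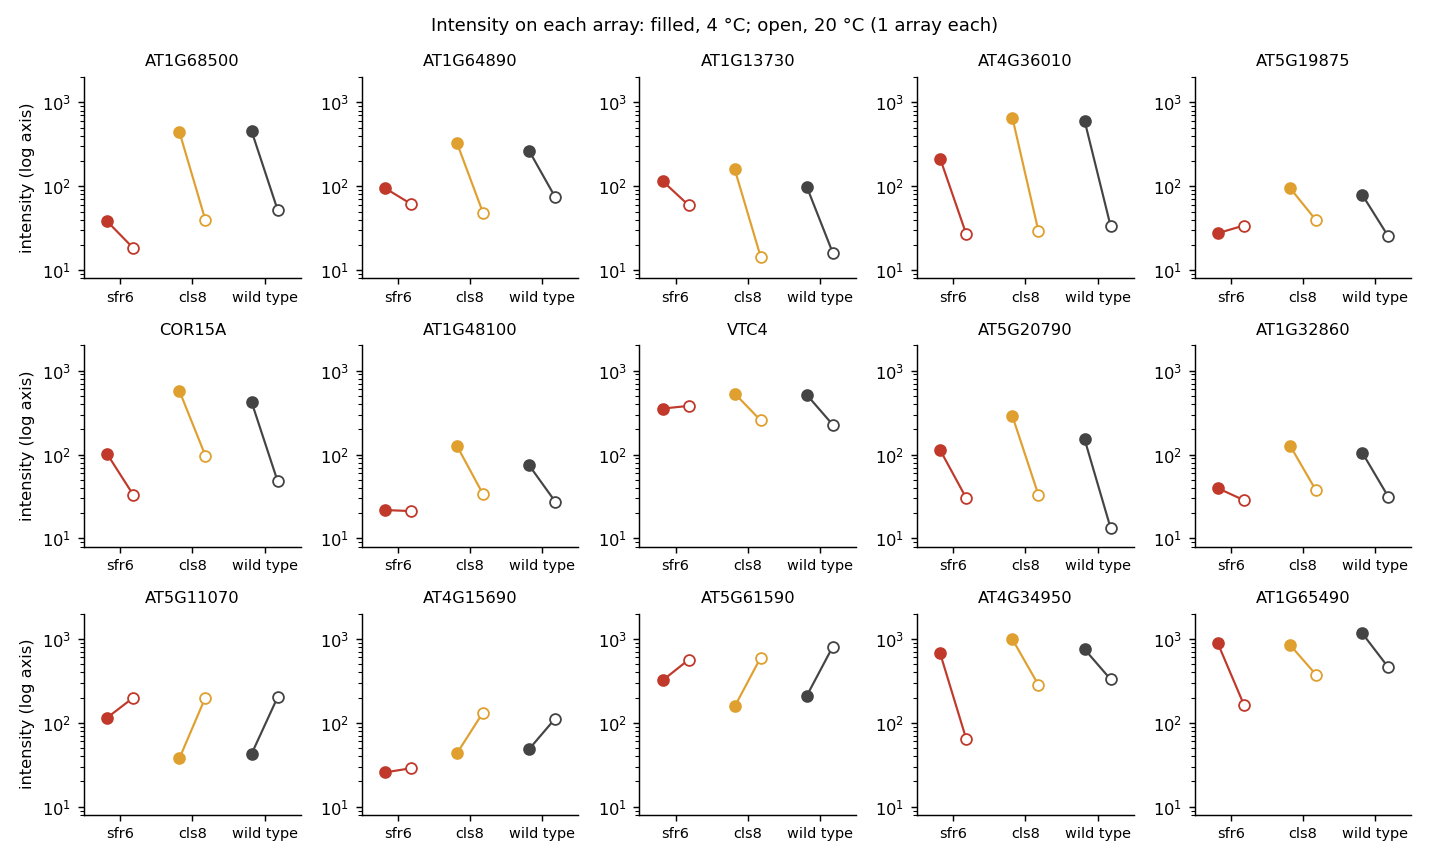
Intensity on a log axis for the 10 named raised genes with the lowest sfr6 fold relative to the other lines, then 3 lowered genes that were weakened (AT5G11070, AT4G15690 and AT5G61590) and 2 raised genes that were enhanced (AT4G34950 and AT1G65490). Each point is 1 array, filled for 4 °C and open for 20 °C, in sfr6, cls8 and the wild type from left to right; for AT1G68500 the filled points stand at 38.2, 445.6 and 456.7.

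Among lowered transcripts, 3 of the 11 weakened ones carried the name of 1 gene. AT5G11070 read 115 at 4 °C and 198.9 at 20 °C in sfr6, 37.6 and 199.6 in cls8, and 42.5 and 200.8 in the wild type. Its 20 °C levels were nearly equal in the 3 lines, and its 4 °C level in sfr6 was well above both others. AT5G61590, the ERF transcription factor DEWAX that represses wax synthesis, read 319.3 and 562.3 in sfr6, 156.3 and 599 in cls8, and 210.9 and 810.2 in the wild type. AT4G15690, a glutaredoxin, read 25.6 and 28.7 in sfr6, 43.4 and 132.5 in cls8, and 48.7 and 112.3 in the wild type. It was lower in sfr6 than in both other lines at both temperatures, with the wider gap at 20 °C.

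The lowered transcripts with the widest gaps had no gene name. The first read 277.3 at 4 °C and 446.2 at 20 °C in sfr6, 80.7 and 579.5 in cls8, and 55.9 and 683.6 in the wild type, a difference of 2.32 in the fold. The second read 299.5 and 362.2 in sfr6, 73.4 and 606 in cls8, and 190.7 and 812.3 in the wild type, a difference of 2.16. At 4 °C the sfr6 level of both was above those of the other lines, and at 20 °C it was below them.

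The next 7 named lowered genes fell short of the threshold for weakened, with differences from 0.81 to 0.98. AT1G23390, a Kelch F-box protein that controls the turnover of chalcone synthase, read 228.6 at 4 °C and 1043.8 at 20 °C in sfr6. It read 156.1 and 1437.1 in cls8, and 193.4 and 1657.5 in the wild type, with log2 folds of -2.12, -3.09 and -3.01 in these 3 lines. AT2G20670 read 106.6 and 537.3 in sfr6, 53.5 and 517.3 in cls8, and 53.8 and 628.5 in the wild type. The others were AT3G52480, AT1G54740, AT4G39675, AT3G06780 and AT2G32150. For AT4G39675 the log2 fold was -0.81 in sfr6, and it also differed between cls8 at -1.19 and the wild type at -2.37.

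A smaller fold can come from the level at 4 °C or at 20 °C, and the difference was therefore split into both. For the 20 weakened rises, the sfr6 level stood at a median of -1.29 (log2) relative to the mean of the other lines at 4 °C and -0.05 at 20 °C. The sfr6 level at 4 °C was below both other lines in 18 of 20, against 30.1% of all kept probe sets. At 20 °C it was above both in 5 of 20, against 34.5% of all kept probe sets. The gap at 4 °C was at least 1 in 14 of 20, against 0.923% of all kept probe sets. For the 11 weakened falls, the median gap at 4 °C was 1.00, and at 20 °C it was -0.40. The sfr6 level was above both others at 4 °C in 8 of 11, against 39.7% of all kept probe sets. It was below both at 20 °C in 9 of 11, against 36.2%. The gap at 4 °C was at least 1 upward in 5 of 11, against 0.308% of all kept probe sets. The weakened classes were chosen by the difference, which is the gap at 4 °C minus that at 20 °C, so these shares partly follow from the choice. The gap at 4 °C was the larger in 17 of 20 weakened rises and 8 of 11 weakened falls, against 6933 of 13648 kept probe sets. Most of the smaller rises were thus lower levels at 4 °C, while the smaller falls combined higher levels at 4 °C with lower levels at 20 °C.

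**Figure D4:**
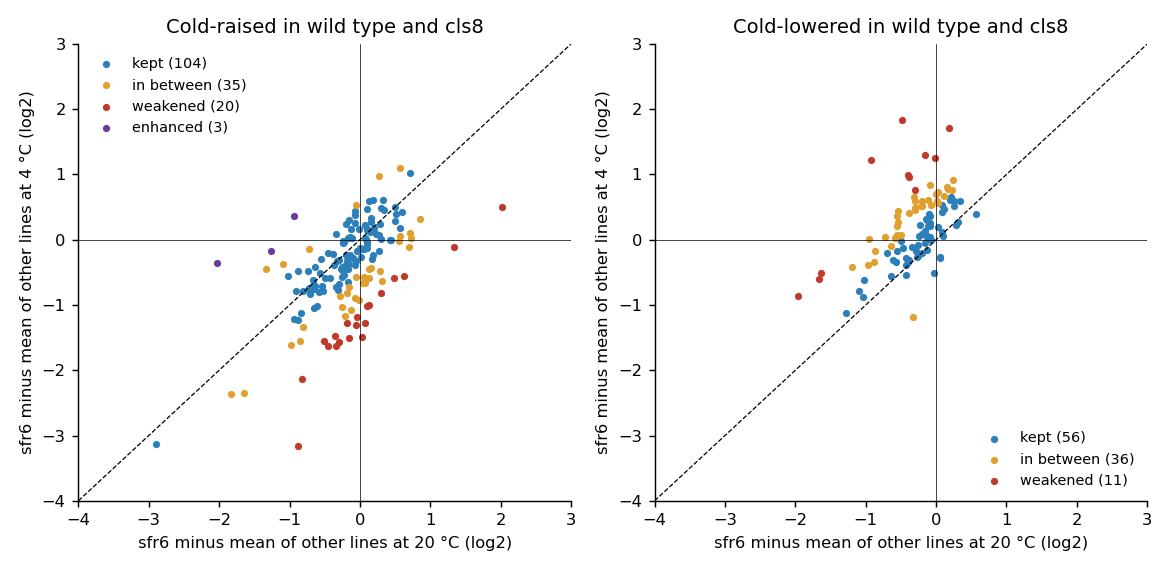
Level of sfr6 minus the mean level of the other lines, in log2 units, at 4 °C (vertical) and at 20 °C (horizontal), for probe sets raised (left) and lowered (right) by cold in the wild type and cls8; on the dashed line the fold in sfr6 equals the mean fold. The 20 weakened rises lie at a median of -1.29 at 4 °C and -0.05 at 20 °C, and the 3 enhanced rises lie to the left of the vertical line.

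Among the named rises, the one with the largest mean fold in the other lines was kept in sfr6, the next, AT4G36010 above, was weakened, and the one after it, COR27, lay in between. The first, AT4G33980, known as COR28 and a regulator linked to cold and the clock, read 262.5 at 4 °C and 9.9 at 20 °C in sfr6, 458.7 and 15.3 in cls8, and 397 and 15.3 in the wild type. This is a log2 fold of 3.53 in sfr6, 4.01 in cls8 and 3.81 in the wild type. AT1G11210 had a log2 fold of 3.44 in sfr6, 3.18 in cls8 and 3.44 in the wild type. It read 7.9 in sfr6 at 20 °C, and its difference of 0.13 became 0.83 with a pseudocount of 1, outside the limit for kept, and -0.25 with one of 43.6. AT1G70420 had a log2 fold of 2.70 in sfr6, 2.59 in cls8 and 3.12 in the wild type. AT2G36220 had a log2 fold of 2.20 in sfr6, 2.30 in cls8 and 2.21 in the wild type. AT1G53035, at a difference of -0.46, was near the limit of the class.

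A kept fold did not mean an equal level. The sfr6 level was below both other lines at 4 °C in 63 of the 104 kept rises, against 30.1% of all kept probe sets, and at 20 °C in 59 of them, against 36.2%. The median gap was -0.23 (log2) at 4 °C and -0.17 at 20 °C. AT5G62360, an inhibitor of pectin methylesterase or invertase, read 80.5 at 4 °C and 7.3 at 20 °C in sfr6, against 1014.8 and 205.3 in cls8 and 647 and 102 in the wild type. Its log2 fold of 2.14 in sfr6 was close to 2.23 in cls8 and 2.51 in the wild type, while its sfr6 levels were several times lower at both temperatures. With a pseudocount of 1 its difference was 0.82 in place of -0.23, and with a pseudocount of 43.6 it was -0.88, so neither the class nor the direction held across pseudocounts. AT5G65300 was likewise dim in sfr6, at 59.8 at 4 °C and 2.7 at 20 °C, against 160.1 and 154.9 at 4 °C in cls8 and the wild type. With a pseudocount of 1 its difference was 0.97 in place of -0.28, and with one of 43.6 it was -0.55.

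Kept falls included AT3G26510, with a PB1 domain, which read 67.4 at 4 °C and 553.3 at 20 °C in sfr6, 36.9 and 531.5 in cls8, and 42.4 and 439.1 in the wild type. Its log2 fold was -2.80 in sfr6, -3.42 in cls8 and -3.00 in the wild type. AT4G28240, of a wound-responsive family, had log2 folds of -2.50 in sfr6, -2.74 in cls8 and -3.22 in the wild type. AT3G56360, AT5G19120, an aspartyl protease, AT4G10910 and AT3G07350 had differences from 0.23 to 0.45. AT2G24550 and AT3G06070 had differences of -0.06 and -0.03. AT2G24550 read 55.2 at 4 °C and 223.4 at 20 °C in sfr6, 45.2 and 170.8 in cls8, and 45.4 and 191.5 in the wild type.

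Of the 3 enhanced rises, AT4G34950, of the major facilitator superfamily, had the largest difference. It read 669.8 at 4 °C and 64.5 at 20 °C in sfr6, 990 and 283.5 in cls8, and 752.3 and 329.9 in the wild type. AT1G65490 read 882.5 and 164.7 in sfr6, 846.3 and 374 in cls8, and 1166 and 459.6 in the wild type. Their log2 folds in sfr6 were 3.12 and 2.33, with differences of 1.67 and 1.09. Both had a 20 °C level in sfr6 far below the other lines, and the 4 °C levels were near those of the others. The same held for AT3G44450, known as BIC2, an inhibitor of cryptochromes, which was just short of the class at a difference of 0.72. It read 355.5 and 71.3 in sfr6, 512.6 and 185.1 in cls8, and 416 and 151.6 in the wild type. AT1G06000, a flavonol rhamnosyltransferase, had a difference of 0.58.

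AT1G69570, the DOF transcription factor CDF5, was raised in sfr6 to a level above the other lines. It read 311.4 at 4 °C and 93.2 at 20 °C in sfr6, 132.2 and 52.1 in cls8, and 144.4 and 64.2 in the wild type, with a difference of 0.52. An unnamed enhanced rise read 673.4 and 54.3 in sfr6, 616.4 and 128.5 in cls8, and 439.6 and 105.1 in the wild type. Its log2 fold was 3.33 in sfr6, 2.14 in cls8 and 1.93 in the wild type. For falls, the named gene nearest to an enhanced response was AT4G14270, with log2 folds of -1.77 in sfr6, -1.39 in cls8 and -1.19 in the wild type. The unnamed fall nearest to that class had log2 folds of -2.37, -1.62 and -1.43 in these lines.

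Responses gained in sfr6 were few. They were defined by folds within 0.5 of 0 in both cls8 and the wild type and a fold of at least 2-fold in sfr6. The sfr6 fold also had to differ from the mean of the other lines by at least 1 on the log2 scale, in the same direction. There were 10 gained rises (0.0733% of kept probe sets) and 2 gained falls (0.0147%). With a pseudocount of 43.6 these counts were 2 and 0, with a pseudocount of 1 they were 19 and 11, and without the filter on dim probe sets they were 27 and 9. With cls8 in the place of sfr6 the counts were 7 and 4, and with the wild type 6 and 7, and neither direction separates sfr6 from both other lines by more than 5 responses. AT2G34050 read 51.8 at 4 °C and 9.7 at 20 °C in sfr6, 34.7 and 36.8 in cls8, and 36 and 36 in the wild type. NRPB7, a subunit of RNA polymerase II, read 59.2 and 20.6 in sfr6, 61.9 and 73.5 in cls8, and 80.4 and 68.2 in the wild type. Both differed from the other lines mainly through a low reading on the sfr6 array at 20 °C. A sfr6 level below both others at 20 °C was found in 7 of the 10 gained rises and in 3 of 3 enhanced rises, against 36.2% of all kept probe sets. This was the array with 1101 outlier cells, and their part in these folds was not tested. A gap of at least 1 below the mean of the other lines at 20 °C was found in 3 of the 10, against 0.806% of all kept probe sets, and one of that size above it in 0, against 0.125%. At 4 °C the sfr6 level was above both others in 8 of the 10 gained rises, against 39.7% of all kept probe sets. A gap of at least 1 above the mean at 4 °C was found in 4 of the 10, against 0.308%. The gap at 4 °C was the larger in 6 of the 10, with medians of 0.73 at 4 °C and -0.60 at 20 °C. Both classes were chosen by a high sfr6 fold, which a low 20 °C level or a high 4 °C level raises, so these shares partly follow from the choice. With a pseudocount of 43.6 the difference of AT2G34050 was 0.86 in place of 1.5 and that of NRPB7 0.68 in place of 1.08. The named gained fall was AT1G52000, a jacalin-like lectin, which read 5.7 and 30.5 in sfr6, 124.7 and 97.2 in cls8, and 88.5 and 85.3 in the wild type, with a difference of -1.35, or -0.73 with a pseudocount of 43.6.

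The lists of pathway genes had few members with a named probe set that passed the filter, and each is given by its counts. In the CBF regulon, 5 of 18 listed genes were kept (COR15A, COR15B, COR47, LTI30 and DI21). In 5 of 5 the sfr6 fold lay below both others, against 28.4% of all kept probe sets. The median difference was -0.55, against 0.03 over all kept probe sets. Among the 162 transcripts raised at least 2-fold in both other lines it was -0.19, and the sfr6 fold lay below both others in 58.6%. COR15B was kept by the class limits at log2 folds of 1.94 in sfr6, 2.12 in cls8 and 2.35 in the wild type, while its neighbour COR15A was weakened. COR47, a dehydrin, read 775.1 at 4 °C and 609.5 at 20 °C in sfr6, 2108.1 and 1055.8 in cls8, and 1451.2 and 838.2 in the wild type. DI21 read 136.1 and 134.7 in sfr6, 204.1 and 148.5 in cls8, and 171.6 and 135.8 in the wild type. The dehydrin LTI30 had log2 folds of 0.65, 1.52 and 1.18 in these lines. Summed over the 5 genes the level was 1502.9 at 4 °C and 956.1 at 20 °C in sfr6, 4753.3 and 1839.7 in cls8, and 3512.6 and 1498.3 in the wild type. The median sfr6 level was -1.16 (log2) relative to the other lines at 4 °C and -0.82 at 20 °C. The sfr6 level was the lowest of the 3 lines in 5 of 5 at 20 °C too, for DI21 by a narrow margin. This held for 36.2% of all kept probe sets and for 51.9% of the 162 raised transcripts.

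Among 20 early cold transcription factors, STZ was the member with a kept, named probe set. It read 124.3 at 4 °C and 22.2 at 20 °C in sfr6, 332.1 and 29.4 in cls8, and 265 and 26.2 in the wild type. Its log2 fold was 1.93 in sfr6, 2.99 in cls8 and 2.79 in the wild type. Of 20 clock and evening genes, COR27, AT4G33980 and GI were kept. COR27, a regulator linked to cold and the clock, read 170 and 13.2 in sfr6, 316.6 and 10.9 in cls8, and 242.5 and 13 in the wild type. The sfr6 fold of COR27 and of AT4G33980 lay below both others. GI, a clock gene of the evening, had log2 folds of 0.52 in sfr6, 0.33 in cls8 and 0.23 in the wild type, and its level was lowest in sfr6 at both temperatures.

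Of 18 genes linked to sugar starvation and darkness, 4 were kept, and in 4 of 4 the sfr6 fold lay above both others, against 36.6% of all kept probe sets. They were AT1G23390, EXO, MCCA and IVD, and their median difference was 0.49. All had negative folds in cls8 and the wild type too. For the 103 transcripts lowered at least 2-fold in both, the sfr6 fold lay above both others in 79.6%, with a median difference of 0.45. IVD and MCCA, enzymes of leucine breakdown in mitochondria, read 99 at 4 °C and 127.7 at 20 °C, and 88.1 and 202.9, in sfr6. IVD read 77.3 and 132 in cls8 and 64.9 and 149.6 in the wild type, and MCCA read 94.6 and 218.2 in cls8 and 71.1 and 254.4 in the wild type. EXO, which promotes growth under brassinosteroids, had log2 folds of -0.26 in sfr6, -0.71 in cls8 and -0.72 in the wild type.

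Of 12 histone genes, 6 were kept, and in 5 of them the sfr6 fold lay below both others, against 28.4% of all kept probe sets. The exception was HTB1, at log2 folds of 0.79 in sfr6, 0.68 in cls8 and 1.37 in the wild type. The median difference was -0.31. All but HIS1-3 had positive folds in cls8 and the wild type. Among the 162 transcripts raised at least 2-fold there, the sfr6 fold lay below both others in 58.6%. The autophagy genes of the ATG8 family encode small proteins attached to autophagosome membranes. All 9 passed the filter, and the sfr6 fold lay between the others in 6, below both in 1 and above both in 2, against 4778 of 13648 kept probe sets with the sfr6 fold between the others. Their median fold was -0.51 in sfr6, -0.59 in cls8 and -0.53 in the wild type, and the differences ran from -0.15 to 0.19, within the limit of 0.5 that held for 92.2% of all kept probe sets. ATG8E read 176.8 at 4 °C and 389.9 at 20 °C in sfr6, 160.7 and 391.3 in cls8, and 194.7 and 427.4 in the wild type.

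**Figure D5:**
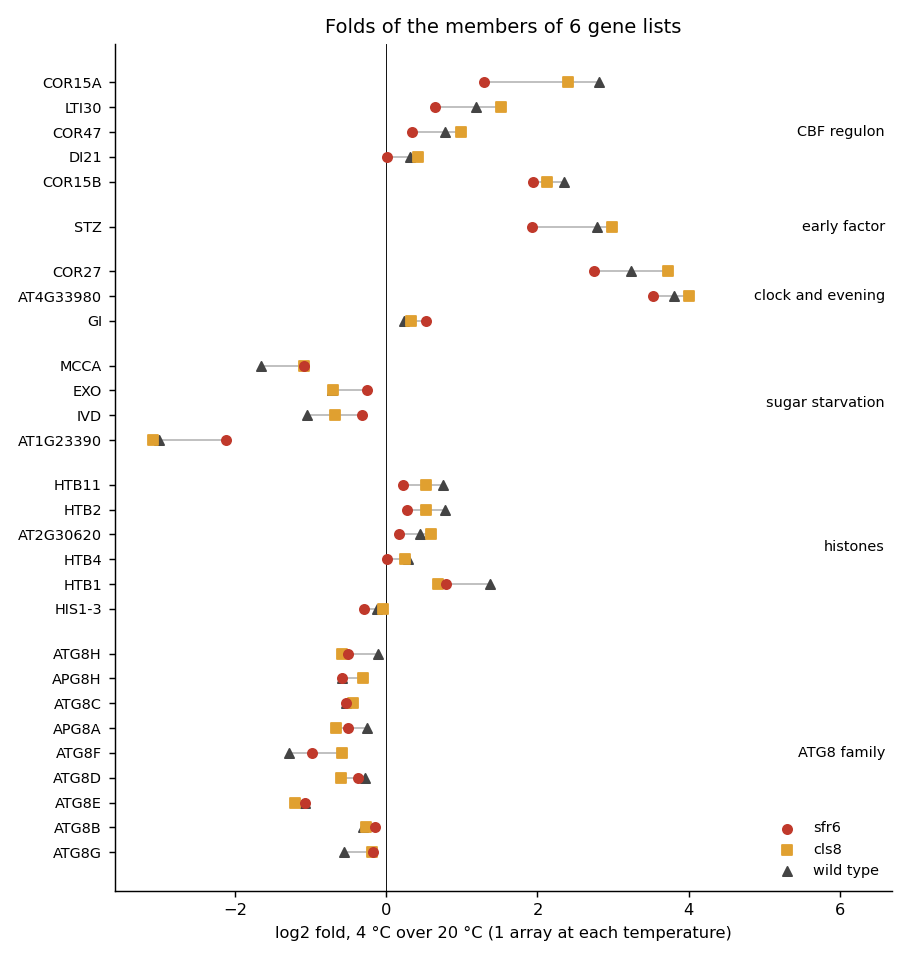
Log2 fold of 4 °C over 20 °C in sfr6 (circles), cls8 (squares) and the wild type (triangles) for the kept, named members of 6 gene lists, with 1 array at each temperature in each line. The circle lies to the left of both other symbols for 5 of 5 CBF regulon genes and 5 of 6 histone genes, to the right for 4 of 4 sugar starvation genes, and between them for 6 of 9 ATG8 genes.

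Members of the remaining lists were few. EXPA8, an expansin that loosens cell walls, was lowered further in sfr6, at 68.7 at 4 °C and 318.1 at 20 °C, against 276.2 and 524.5 in cls8 and 160.1 and 353 in the wild type. Its log2 fold was -2.00 in sfr6, -0.89 in cls8 and -1.08 in the wild type. It was no member of the classes above because its cls8 fold was under 2-fold. XTH16, a xyloglucan endotransglucosylase, had a difference of 0.11. ATSPS4F, a sucrose phosphate synthase, read 275.5 and 115.3 in sfr6, 343.2 and 241.7 in cls8, and 253 and 170.5 in the wild type, with a log2 fold of 1.16 in sfr6, 0.48 in cls8 and 0.53 in the wild type. ARR15, a cytokinin response regulator, had log2 folds of 1.71 in sfr6, 0.87 in cls8 and 1.61 in the wild type. DFR and UF3GT of anthocyanin synthesis had differences of -0.44 and 0.28. AT3G09440, a cytosolic Hsp70, had log2 folds of 0.84 in sfr6, 0.80 in cls8 and 0.92 in the wild type. The auxin-conjugating enzymes GH3.3 and WES1 had differences of 0.06 and 0.02, and the Mediator subunit AT2G22370 one of 0.29. The defensins PDF1.2 and PDF1.2b were far lower in sfr6 at both temperatures, and the cls8 and wild-type folds disagreed in sign. No member of the abscisic acid and gibberellin lists had a named probe set, and none of the calcium and touch list was kept.

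In whole seedlings, fewer cells of a type and less RNA per cell cannot be told apart. Of 23 tissue markers, 8 had a named probe set and all 8 were kept. The root genes PYK10 and EXPA7 summed to 3212.4 at 4 °C and 3005.2 at 20 °C in sfr6, 3469.2 and 2640.7 in cls8, and 2912 and 3404 in the wild type. The photosynthesis genes RCA, LHCB4.1, LHCB4.2 and PSBW summed to 11772 and 12934.2 in sfr6, 14864.1 and 10654.1 in cls8, and 10665.9 and 15538 in the wild type. Their folds were positive in cls8 and negative in the wild type, with sfr6 between them in 4 of 4. The guard cell gene FMA had a difference of -0.23 and AUR1, of dividing cells, one of 0.09. Their part in the differences between lines was not tested.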

How the data were processed

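The authors' deposited table gives intensity on a linear scale for 22810 probe sets on 6 arrays. Per the labels, biotin-labelled cRNA was hybridised to ATH1 arrays; the sources used here do not name the algorithm behind the values. On each array the mean without the lowest and highest 2% was 100, as found from the values. The 64 controls were set aside, log2(intensity + 14.1) was taken, with the 25th percentile of all values as pseudocount, and 13648 probe sets with a mean at or above the 40th percentile were kept. The platform's annotation named 1 gene for 13513 probe sets, several for 503 and none for 8730, and 13436 of the 13513 matched RefSeq's TAIR10.1 gene table, used for names alone. Folds, differences and classes were computed in Python 3.11.15 with pandas 2.3.3 and numpy 2.4.6, and the classing was tested on simulated data. The simulated differences lay well away from the thresholds, with less noise than between the cls8 and wild-type folds. That test therefore checked the code and not the calls near a threshold. Depth has no meaning for arrays, and their number limits the precision. Promoter motifs were planned and not analysed here.

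Named genes were, among kept probe sets with 1 gene, the 10 raised and 10 lowered responses most reduced in sfr6, the 5 most increased of each, the 8 largest kept responses of each, up to 5 gained in each direction, and members of the gene lists, plus unnamed probe sets at the ends of the raised and lowered responses. Classes, members and lists were chosen with earlier results of these data known. Alternatives were other pseudocounts, filters, thresholds, quantile normalization and either other line alone.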

Additional observations from a re-analysis of the deposited data

Results flagged for a closer look

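For 3 named genes of the weakened and gained classes the sfr6 array pair moved in the opposite direction to both other pairs, and the difference was not tested. The log2 fold of AT5G19875 was -0.21 in sfr6, 1.03 in cls8 and 1.24 in the wild type. That of VTC4 was -0.10 in sfr6, 1.03 in cls8 and 1.14 in the wild type. That of AT1G52000 was -1.17 in sfr6, 0.32 in cls8 and 0.05 in the wild type, with sfr6 intensities of 5.7 at 4 °C and 30.5 at 20 °C. The tissue markers FMA and EXPA7 also had an sfr6 fold opposite in sign to both others, with small folds throughout. Those of FMA were -0.10 in sfr6, 0.19 in cls8 and 0.07 in the wild type, and those of EXPA7 were 0.17, -0.11 and -0.11.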

How the results depend on the processing

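No paired analysis was possible because each group held 1 array and no result came from a test. With the settings of the report, 20 of 162 raised and 11 of 103 lowered transcripts were weakened in sfr6. Those kept numbered 104 and 56, those enhanced 3 and 0, and the rises and falls gained 10 and 2. Other pseudocounts and a single reference line also changed how many transcripts counted as raised or lowered. A pseudocount of 43.6, the median of all values, gave 6 of 119 and 5 of 62 weakened, and all 6 and 5 were among the 20 and 11. It also gave 35 of 62 falls kept, and 2 and 0 gained. A pseudocount of 1 gave 24 of 211 rises and 22 of 148 falls weakened. It also gave 6 rises and 1 fall enhanced, and 19 and 11 gained. With no filter on the mean level, 27 rises and 9 falls were gained, and with a filter at the 60th percentile 11 rises were weakened and 3 and 0 responses gained. Quantile normalization gave 22 and 11 weakened, including all 20 and 11. Against the wild type alone, 28 of 282 rises and 26 of 196 falls were weakened, 186 and 101 kept, and 4 falls gained. Against cls8 alone, 30 of 236 and 19 of 170 were weakened, 93 falls kept, and 17 rises and 6 falls gained. A difference of 1.5-fold in place of 2-fold gave 40 and 38 weakened, 7 rises and 1 fall enhanced, and 19 rises and 3 falls gained. With cls8 in the place of sfr6 there were 1 and 4 weakened, 1 rise and 1 fall enhanced, and 4 falls gained. With the wild type there were 1 and 0 weakened, 1 rise enhanced, and 6 and 7 gained. On levels at 4 °C alone, a comparison chosen after seeing the data, 28 of 162 raised transcripts were at least 2-fold lower in sfr6 and 2 higher. Of the 103 lowered ones, 5 were at least 2-fold higher in sfr6 and 2 lower. Over all kept probe sets, 0.923% were lower and 0.308% higher by that much. The cause of these shifts was not tested. The median folds of transcripts chosen in cls8 alone moved by less than the spread between lines under every setting run for them. The median difference of the CBF regulon genes ran from -0.65 to -0.41. Dim probe sets limit these folds, since a small error in their intensity moves the fold more.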
